A study of Homo sapiens with 4 samples.

Results

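The 9 enzymes described here carry the serine synthesis pathway and the folate cycle that serine feeds: PHGDH, PSAT1, PSPH, SHMT1, SHMT2, MTHFD1, MTHFD1L, MTHFD2 and ALDH1L2. They were taken by gene name from a table of 55536 genes, in which each name stood once, and all 9 were among the 14380 genes with enough reads to be tested. RNA with a poly(A) tail was sequenced from HaCaT, an established human keratinocyte line, in 2 libraries of cells in which TYMP was overexpressed and 2 libraries labelled NC. A lentivirus was used to make the stable TYMP overexpression cells. NC is not spelled out in the labels, and neither the vector, its promoter, the number of clones nor the treatment of the NC cells is given there. RNA was taken with Trizol after 48 hours in all 4 libraries. The labels do not say whether the paired libraries of a group are separate cultures. The p-values therefore reflect only how these 4 libraries vary, which may be technical variation.

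Cells make serine from a glycolytic intermediate in 3 steps: PHGDH oxidises phosphoglycerate, PSAT1 transfers an amino group from glutamate, and PSPH removes the phosphate. Serine hydroxymethyltransferases, SHMT1 in the cytosol and SHMT2 in mitochondria, then turn serine into glycine and pass its side-chain carbon to tetrahydrofolate. In mitochondria MTHFD2 and MTHFD1L carry that carbon on to formate, and in the cytosol MTHFD1 loads formate back onto folate for the synthesis of purines and thymidylate. ALDH1L2 is a mitochondrial enzyme that releases the carbon as CO2 while making NADPH.

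The libraries held between 16209663 and 17000821 reads in genes. TYMP, the gene of thymidine phosphorylase, had 1221 and 1100 reads in the TYMP libraries and 281 and 264 in the NC libraries, and rose 4.30-fold. All 9 listed keratinocyte markers had at least 10 reads in every library, and their summed level was 11402 to 12162 CPM in the TYMP libraries and 8460 to 9463 CPM in the NC libraries. CPM are counts scaled to library size, here after correction by the trimmed mean of M values (TMM). The listed markers of fibroblasts, melanocytes, endothelium and leukocytes summed to 2.83 to 8.88 CPM in the TYMP libraries and 1.49 to 5.42 CPM in the NC libraries, list by list. COL3A1, PDGFRA, TYR, MS4A1 and LYZ had no read in any library. In each of these lists 1 gene had at least 10 reads in every library: COL1A1, PMEL, CDH5 and CD14. In the TYMP libraries they had 138 and 103, 37 and 28, 36 and 33, and 96 and 75 reads, in that order. In the NC libraries they had 86 and 71, 19 and 27, 53 and 38, and 43 and 66 reads. In RNA from many cells, fewer cells with a transcript and less of it per cell cannot be told apart.

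Of the 9 enzymes, 3 fell in TYMP cells and 0 rose: SHMT1, MTHFD2 and PSAT1. The call was an adjusted p under 0.05 in edgeR's quasi-likelihood test, adjusted over all 14380 tested genes, of which 3.32% were called in either direction, 1.23% lower and 2.09% higher. At an unadjusted p under 0.05, 5 enzymes were lower and 0 higher, where 14.7% of all tested genes passed, 6.62% lower and 8.05% higher. DESeq2 called the same 3 enzymes lower and 0 higher. The log2 fold change was below 0 for 8 of the 9 enzymes, SHMT2 and ALDH1L2 among them, which changed sign with 1 library left out, against 50.9% of all tested genes. Its median over the 9 was -0.24, against -0.01 over all tested genes. The TYMP libraries lay below both NC libraries for 6 enzymes and above both for 0, where 43.6% of all tested genes lay apart, 21.8% in each direction. PHGDH, SHMT2 and ALDH1L2 had overlapping groups.

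**Figure D1:**
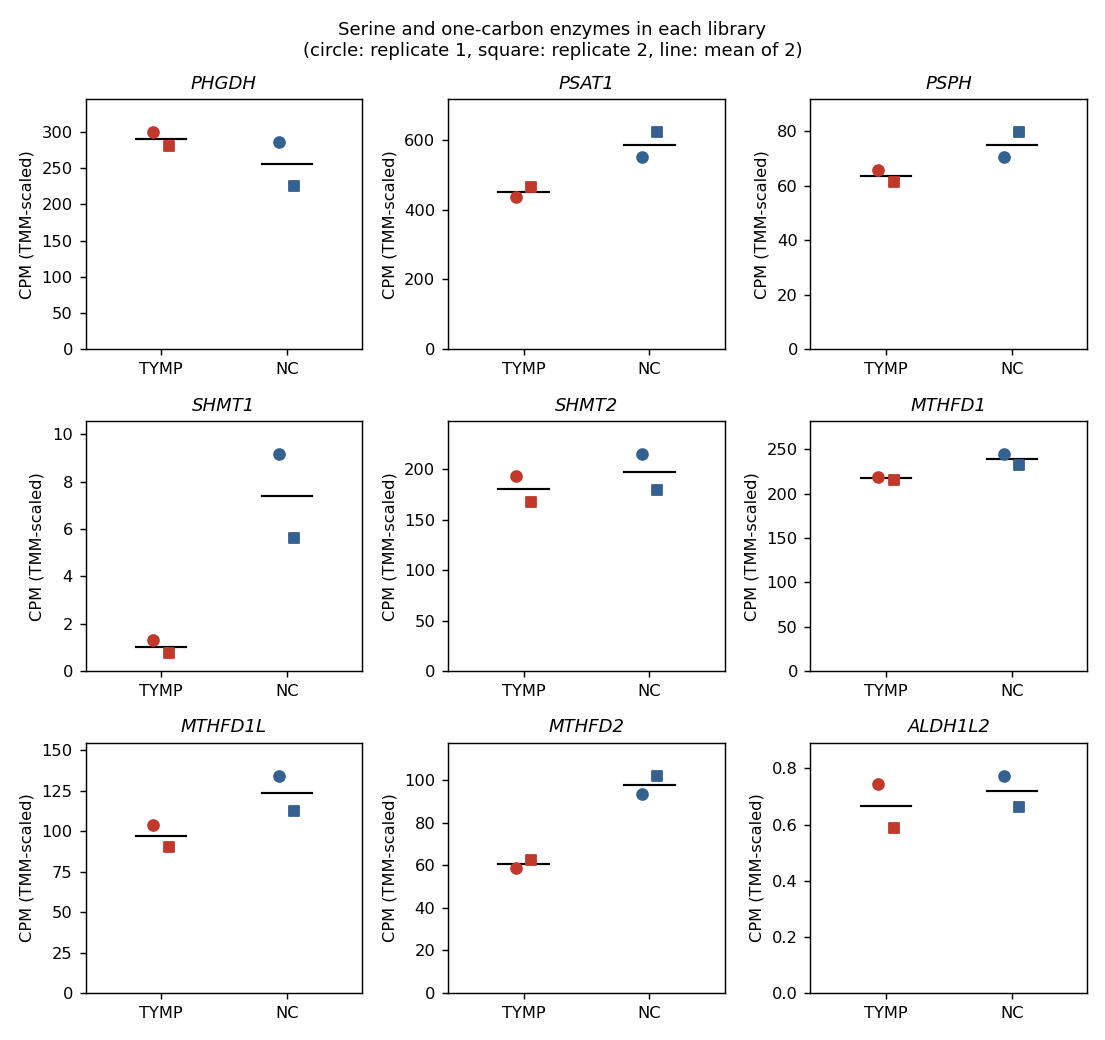
Level of each enzyme in CPM scaled by TMM, in TYMP libraries (red, left) and NC libraries (blue, right); circles are replicate 1, squares replicate 2, lines the mean of 2 libraries. The groups are apart for PSAT1, PSPH, SHMT1, MTHFD1, MTHFD1L and MTHFD2, with the TYMP libraries lower each time.

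Among the serine synthesis enzymes, PSAT1 fell, while PHGDH and PSPH did not pass the test. In GENCODE 29 (GRCh38) PSAT1 lies at chr9:78297143-78330093 and PHGDH at chr1:119648411-119744226 on the plus strand, and PSPH at chr7:56011051-56051604 on the minus strand. PSAT1, the aminotransferase, had 437 and 464 CPM in the TYMP libraries and 550.0 and 622 CPM in the NC libraries. Both TYMP libraries were lower than either NC library, by 1.30-fold on average (log2 fold change -0.38 ± 0.0837 SE; edgeR adjusted p = 0.0241). Its mean was 450 ± 18.9 CPM in TYMP cells and 586 ± 51.2 CPM in NC cells (SD, n = 2 each). The call rested on particular libraries: PSAT1 did not pass without TYMP replicate 1 (log2 fold change -0.33, edgeR adjusted p = 0.172) or without NC replicate 2 (-0.29, adjusted p = 0.0792), nor by limma on the authors' FPKM (-0.36, adjusted p = 0.138). PHGDH, the dehydrogenase of the entry step, had 299.9 and 281 CPM in the TYMP libraries and 286 and 225 CPM in the NC libraries. It was the only one of the 9 with a log2 fold change above 0, at 0.18 with a 95% interval of -0.04 to 0.41, and its groups overlapped (edgeR adjusted p = 0.461). The interval, like the others given here, is not adjusted for the number of genes. Without NC replicate 1, which left NC replicate 2 as the lone NC library, the log2 fold change of PHGDH was 0.37 and passed the test (edgeR adjusted p = 0.0135). PSPH, the phosphatase that frees serine, had 65.9 and 61.4 CPM in the TYMP libraries and 70.4 and 79.6 CPM in the NC libraries. The groups did not overlap, but the difference did not pass (log2 fold change -0.24, 95% interval -0.46 to -0.02; edgeR adjusted p = 0.297).

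MTHFD2, the mitochondrial dehydrogenase and cyclohydrolase, fell 1.62-fold. Its gene lies at chr2:74198562-74217565 on the plus strand. It had 942 and 1058 reads in the TYMP libraries and 1572 and 1689 reads in the NC libraries, which gives 58.5 and 62.3 CPM in the TYMP libraries and 93.5 and 102 CPM in the NC libraries. The lower NC library stood well above the higher TYMP library, and the log2 fold change of -0.69 ± 0.0966 SE had a 95% interval of -0.90 to -0.49 (edgeR adjusted p = 0.00143). It kept its call whichever library was left out, with log2 fold changes of -0.75 to -0.64. By limma on log2 FPKM with a pseudocount of 1, it passed with a filter on low genes (adjusted p = 0.0408) and not without (-0.59, adjusted p = 0.266). In GENCODE 29, exons of AC006030.1 and SLC4A5 on the opposite strand cover 33.2% of the 4870 MTHFD2 exon bases. The authors' FPKM rests on 11443 bases for MTHFD2, so the share in their gene model is unknown. The strand setting of the counting is also unknown. SLC4A5 itself had 1 and 0 reads in the TYMP libraries and 1 and 0 in the NC libraries.

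MTHFD1L lies at chr6:150865549-151101887 and MTHFD1 at chr14:64388031-64463457, both on the plus strand. MTHFD1L, the mitochondrial enzyme that releases formate, had 104 and 90.5 CPM in the TYMP libraries and 134 and 113 CPM in the NC libraries. The groups did not overlap and the log2 fold change was -0.35 (95% interval -0.58 to -0.12), but the adjusted p of edgeR was 0.115. With 1 library left out, its log2 fold change ranged from -0.47 (without NC replicate 2) to -0.21 (without NC replicate 1). MTHFD1, the cytosolic enzyme that joins 3 folate activities in 1 protein, had 219 and 216 CPM in the TYMP libraries and 245 and 233 CPM in the NC libraries. These groups were also apart, by a log2 fold change of -0.14 (95% interval -0.31 to 0.04; edgeR adjusted p = 0.48). Annotated exons of ZBTB25 on the opposite strand overlap those of MTHFD1, and ZBTB25 had 614 and 682 reads in the TYMP libraries and 613 and 637 in the NC libraries. ALDH1L2, at chr12:105019784-105084577 on the minus strand, was almost without reads, with 12 and 10 in the TYMP libraries and 13 and 11 in the NC libraries. Its 95% interval of -1.25 to 1.03 (log2) includes a change of 2-fold in either direction, so a change of that size was not excluded. Its cytosolic counterpart ALDH1L1 had 1 and 1 reads in the TYMP libraries and 4 and 0 in the NC libraries, too few to be tested.

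**Figure D2:**
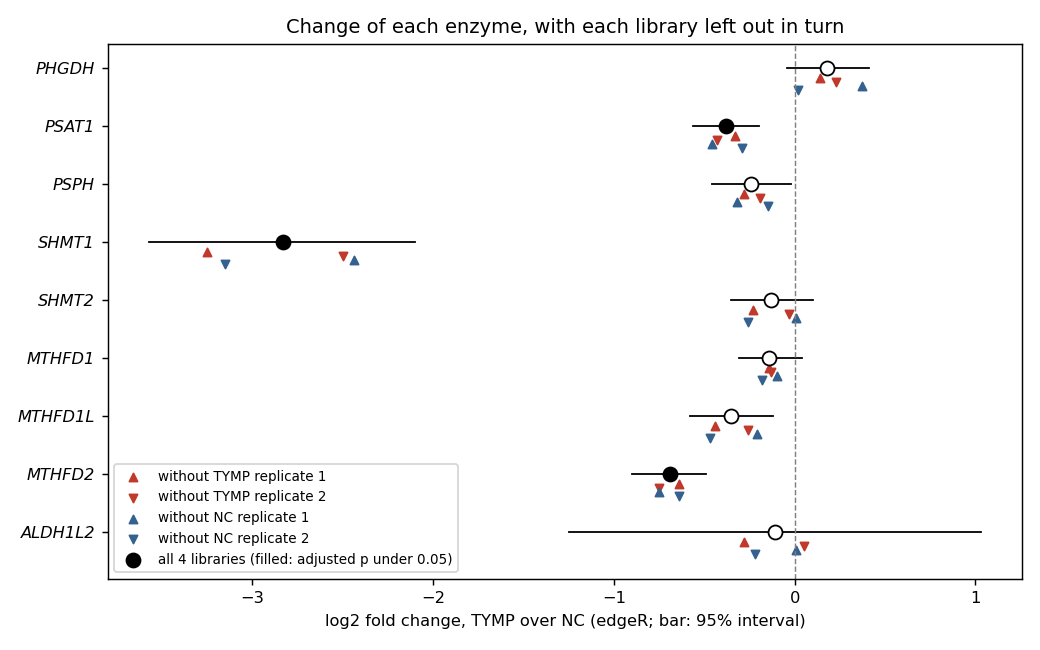
Log2 fold change of each enzyme, TYMP over NC, from edgeR (circles, filled at an adjusted p under 0.05, with 95% intervals), and the values with 1 library left out (triangles, red for a TYMP and blue for an NC library). SHMT1 lies between -3.25 and -2.44 and MTHFD2 between -0.75 and -0.64 in the fits with a library left out, while SHMT2 and ALDH1L2 cross 0.

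The serine hydroxymethyltransferases gave unlike values. SHMT2, the mitochondrial form at chr12:57229327-57234935 on the plus strand, had 193 and 168 CPM in the TYMP libraries and 215 and 179 CPM in the NC libraries. The groups overlapped, and the log2 fold change of -0.13 (95% interval -0.35 to 0.10) did not pass (edgeR adjusted p = 0.649). SHMT1, the cytosolic form, had 21 and 13 reads in the TYMP libraries and 154 and 93 reads in the NC libraries. That is 1.30 and 0.766 CPM in the TYMP libraries and 9.16 and 5.62 CPM in the NC libraries. The groups were far apart, but the libraries within each group also differed: the higher of the pair had over 1.5 times the reads of the lower in both groups. The log2 fold change was -2.83 ± 0.341 SE (95% interval -3.57 to -2.10; edgeR adjusted p = 0.000458), and it stayed past the threshold with any 1 library left out, between -3.25 and -2.44. On unfiltered log2 FPKM with a pseudocount of 1, which shrinks low genes, it was -0.83 and did not pass by limma (adjusted p = 0.363). Per length, in the authors' FPKM (fragments scaled by gene length and library size), the SHMT1 level was 0.443% and 0.299% of the SHMT2 level in the TYMP libraries and 2.80% and 2.06% in the NC libraries. SHMT2 was the higher of the pair in all 4 libraries.

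The SHMT1 reads lie in a stretch of chromosome 17 where many genes have few reads. SHMT1 is on the minus strand at chr17:18327860-18363563, and its 3′ end shares 196 bases with SMCR8. SMCR8 had 16 and 11 reads in the TYMP libraries and 17 and 17 in the NC libraries. Beyond the 5′ end, EVPLL had no read in any library. On the side of SMCR8, TOP3A, a topoisomerase gene, had 17 and 79 reads in the TYMP libraries and 104 and 12 in the NC libraries, so it varied more within a group than between the groups. MIEF2, a mitochondrial fission gene, had 1 and 0 reads in the TYMP libraries and 72 and 7 in the NC libraries. FLII, a gene of the actin cytoskeleton, moved against SHMT1, with 627 and 1019 reads in the TYMP libraries and 95 and 143 in the NC libraries (log2 fold change 2.79 ± 0.258 SE; edgeR adjusted p = 0.00104). FLII, MIEF2, TOP3A, SMCR8 and EVPLL also have a copy in GENCODE 29 on alternate or patch sequences, and SHMT1, which they flank, has none. Farther along, LLGL1, ALKBH5 and DRG2 had 547 to 2004 reads per TYMP library and 652 to 2155 per NC library, and none of these 3 was called by edgeR (adjusted p = 0.482, 0.983 and 0.494). The handling of reads that match more than 1 place is unknown. Its part in the SHMT1 level, in the ratio of SHMT1 to SHMT2 and in the SHMT1 difference was not tested.

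**Figure D3:**
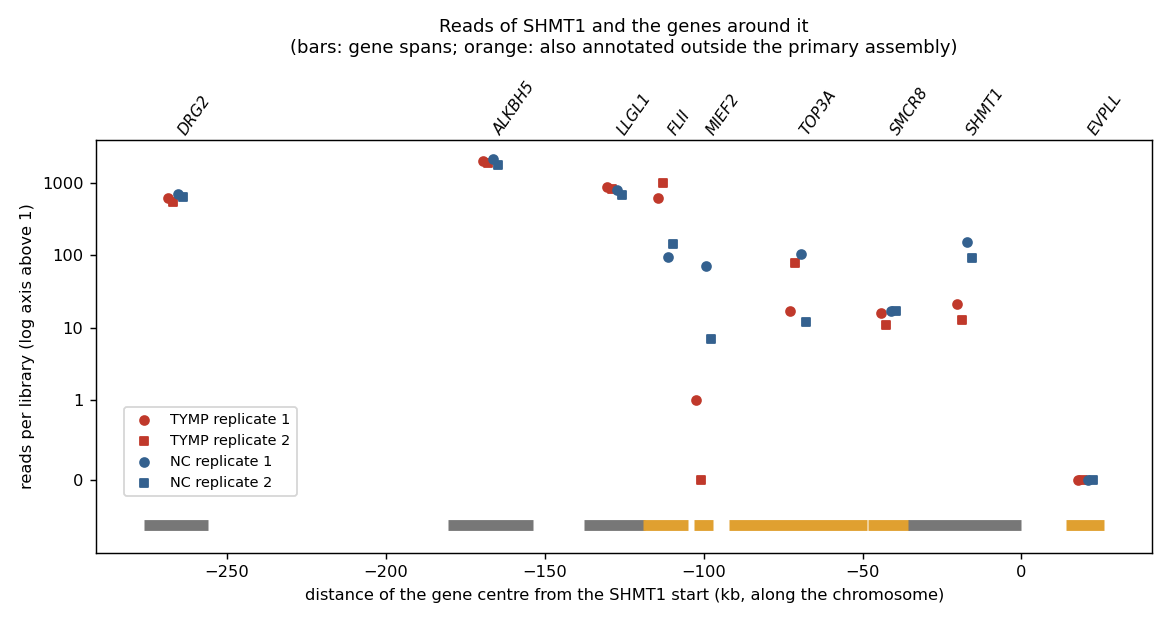
Reads of SHMT1 and of 8 genes around it in each library, placed by the distance of the gene's centre from the SHMT1 start in kilobases; the vertical axis is logarithmic above 1. SHMT1 has 13 and 21 reads in the TYMP libraries and 93 and 154 in the NC libraries, between SMCR8 with 11 to 17 reads and EVPLL with 0.

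Pseudogene copies of the enzymes took almost no reads. The table lists 15 rows, most of them annotated as processed pseudogenes, whose name is an enzyme symbol followed by P and a number, and 2 of them had a read, 3 at most over all libraries. MTHFD1P1 had 2 and 1 reads in the TYMP libraries and 0 in the NC libraries, and SHMT1P1 had 0 in the TYMP libraries and 0 and 1 in the NC libraries. PSPHP1, an unprocessed copy, had 0 in every library. The counts of an enzyme with such a copy are uncertain by any reads that match both.

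The enzymes spanned a wide range of levels per length. By the authors' FPKM the order in TYMP libraries was PSAT1, SHMT2, PHGDH, PSPH, MTHFD1L, MTHFD1, MTHFD2, SHMT1 and ALDH1L2, and the order in NC libraries was the same. PSAT1 was the highest, at 205 ± 11.6 FPKM in TYMP cells and 264 ± 24.6 FPKM in NC cells (SD, n = 2 each). SHMT2 followed at 39.5 ± 3.36 FPKM in TYMP cells and 42.6 ± 5.24 FPKM in NC cells. MTHFD2 was at 5.30 ± 0.317 FPKM in TYMP cells and 8.48 ± 0.566 FPKM in NC cells, and ALDH1L2 at 0.0705 ± 0.0106 FPKM in TYMP cells and 0.0751 ± 0.00766 FPKM in NC cells. No ranges of neighbours in the order overlapped in the TYMP libraries, whereas in the NC libraries those of PHGDH and PSPH did, and those of PSPH and MTHFD1L did. The order depends on the length. The authors' FPKM rests on 11443 bases for MTHFD2, 17357 for MTHFD1 and 9187 for PHGDH, while the longest coding transcript of GENCODE 29 has 4456, 6814 and 2585 bases. With those lengths, chosen after the values were seen, PHGDH stood at 113 ± 3.60 in TYMP cells and 98.0 ± 15.9 in NC cells on the same scale (SD, n = 2 each), ahead of SHMT2. MTHFD1 then had a higher mean than PSPH and MTHFD1L, but in the NC libraries the ranges of MTHFD1 and PSPH overlapped, as did those of PSPH and MTHFD1L. PSAT1 remained the highest and MTHFD2, SHMT1 and ALDH1L2 the 3 lowest with either length.

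**Figure D4:**
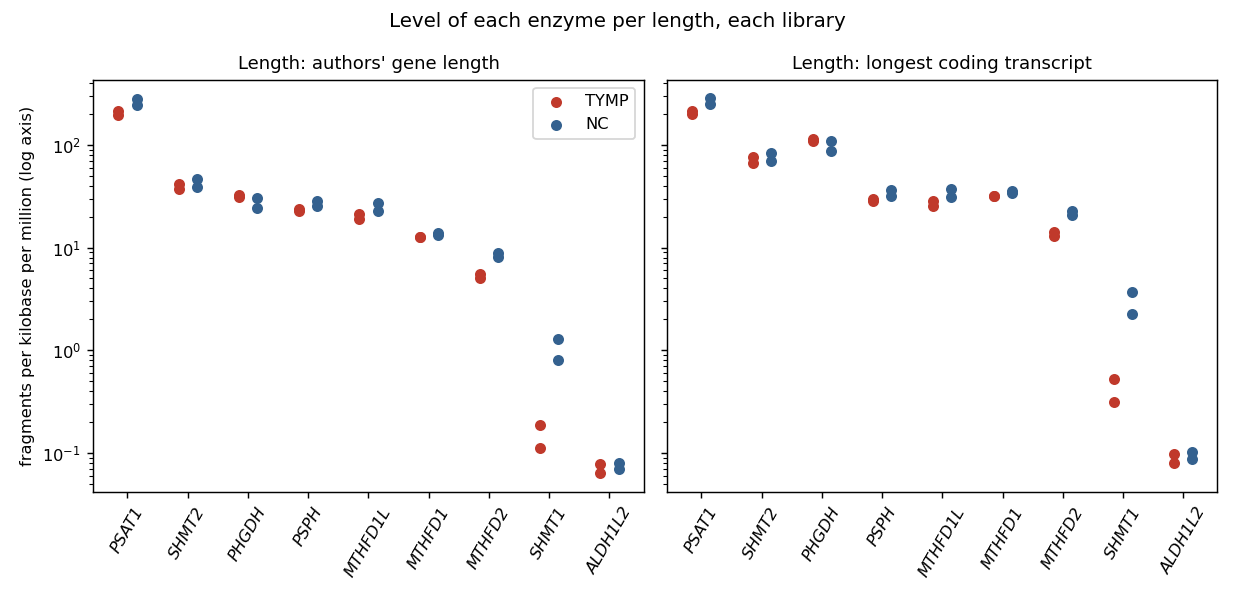
Level of each enzyme per length in TYMP libraries (red, left of each pair) and NC libraries (blue, right), with the authors' gene length on the left and the longest coding transcript on the right, on log axes. PSAT1 is highest on both sides and ALDH1L2 lowest, while PHGDH and SHMT2 change places.

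MTHFD2L, a second mitochondrial enzyme of the MTHFD2 kind, differed within the NC group more than between the groups. It had 177 and 184 reads in the TYMP libraries and 121 and 213 in the NC libraries (edgeR adjusted p = 0.874). The FPKM of MTHFD2 was 4.57 and 4.93 times that of MTHFD2L in the TYMP libraries and 11.1 and 6.80 times in the NC libraries. The FPKM of MTHFD1L was 1.68 and 1.49 times that of MTHFD1 in the TYMP libraries and 1.95 and 1.72 times in the NC libraries, which puts the TYMP libraries below both NC libraries for each ratio. These ratios are given as values and were not tested.

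The promoters of the 3 enzymes called lower are shown. Whether their falls have a common cause was not tested. Each is the 250 bases before the RefSeq start (GRCh38.p14), 5′ to 3′ on the gene's strand, with each CCAAT or its reverse complement ATTGG in capitals. The windows lie at chr2:74198365-74198614 on the plus strand for MTHFD2, chr9:78296875-78297124 on the plus strand for PSAT1 and chr17:18363551-18363800 on the minus strand for SHMT1.
MTHFD2: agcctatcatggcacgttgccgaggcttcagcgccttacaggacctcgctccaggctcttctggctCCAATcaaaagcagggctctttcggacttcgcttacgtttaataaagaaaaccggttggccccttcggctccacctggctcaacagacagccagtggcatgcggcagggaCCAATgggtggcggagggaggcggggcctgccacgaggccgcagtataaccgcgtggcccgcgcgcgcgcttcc
PSAT1: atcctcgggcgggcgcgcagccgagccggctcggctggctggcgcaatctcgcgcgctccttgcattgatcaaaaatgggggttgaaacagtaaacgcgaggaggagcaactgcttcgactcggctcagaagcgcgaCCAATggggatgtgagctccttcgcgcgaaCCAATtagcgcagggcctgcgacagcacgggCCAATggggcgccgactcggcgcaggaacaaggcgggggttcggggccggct
SHMT1: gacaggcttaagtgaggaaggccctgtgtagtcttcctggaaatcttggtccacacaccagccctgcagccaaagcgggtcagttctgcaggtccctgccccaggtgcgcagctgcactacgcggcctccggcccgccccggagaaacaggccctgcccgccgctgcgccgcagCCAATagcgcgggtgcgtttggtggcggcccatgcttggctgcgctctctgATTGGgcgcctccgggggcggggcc
Of the 9 enzymes, 6 had a window in the RefSeq table. The motif CCAAT, looked for after the sequences were seen, was found on either strand in a window of all 6, against 37.0% of the 27305 genes in the table. PSAT1 held it 3 times, 113, 83 and 52 bases before its RefSeq start. The first transcribed bases from that start were not found in a GENCODE transcript. The windows of PHGDH, MTHFD1 and MTHFD1L, which were not called, hold it as well.

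The core of the C/EBP-ATF response element, searched as TGATGNAA on either strand, was found in 1 of the 6 enzymes and in 3.89% of all genes in the table. The enzyme was MTHFD1L, and 30 bases around the match at chr6:150866346-150866375 on the plus strand are shown with the match in capitals.
MTHFD1L: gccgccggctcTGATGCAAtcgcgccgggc
The match lies 90 or 129 bases before a start, for the RefSeq starts of MTHFD1L with windows at chr6:150866197-150866446 and chr6:150866236-150866485. For both of these starts, the first 30 transcribed bases were not found in a GENCODE transcript. They were found for the start with the window at chr6:150866083-150866332. The windows of other RefSeq starts of MTHFD1L, at chr6:150866083-150866332 and chr6:151006758-151007007, do not hold it. The E-box CACGTG was found in MTHFD1 and MTHFD1L and in 7.73% of all genes, in MTHFD1L only in the windows that hold TGATGNAA. The AP-1 motif TGANTCA was found in 0 of the 6 and in 8.06% of all genes. The letters TGATGNAA, CACGTG and TGANTCA were therefore absent from the windows of MTHFD2, PSAT1 and SHMT1, which says nothing about other parts of these genes.

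Around the 9 enzymes, genes of 9 lists that use or supply the same carbon, or are regulated with it, were read from the same fit. The lists hold 76 genes, of which 62 were tested. Of these, 8 fell and 0 rose by edgeR (19 lower and 1 higher at an unadjusted p under 0.05; DESeq2 called 7 lower and 0 higher). Of all tested genes edgeR called 1.23% lower, and 6.62% were lower at an unadjusted p under 0.05. All 8 were either the amino acid carrier SLC1A5 or in the list of ATF4 and its targets, where ATF4 is a transcription factor that drives serine synthesis and amino acid supply under stress.

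Purine ring synthesis takes 2 of its carbons from folate. Of its 8 tested genes 0 were called in either direction by edgeR or DESeq2, 4 were lower and 0 higher at an unadjusted p under 0.05, and 8 had a log2 fold change below 0, with a median of -0.19. The TYMP libraries lay below both NC libraries for 6 of the 8. For PPAT, counted among them, TYMP replicate 2 at 63.67 CPM was almost level with NC replicate 1 at 63.672 CPM. Over all tested genes the shares were 6.62% lower at an unadjusted p, 50.9% below 0 and 21.8% with the TYMP libraries below both NC libraries. GART, which carries 3 of the activities of the pathway, had 164 and 157 CPM in the TYMP libraries and 196 and 186 CPM in the NC libraries (log2 fold change -0.25; edgeR adjusted p = 0.144). PFAS had 103 and 88.7 CPM in the TYMP libraries and 131 and 108 CPM in the NC libraries. Its log2 fold change was -0.32 (edgeR adjusted p = 0.168). With 1 library left out, that of PFAS ranged from -0.46 (without NC replicate 2) to -0.17 (without NC replicate 1).

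Thymidylate synthesis takes its methyl group from folate, and thymidine phosphorylase splits thymidine, the nucleoside of its product. Here 0 of 4 genes were called by edgeR (0 at an unadjusted p under 0.05, 0 by DESeq2). Their median log2 fold change was -0.07. DTYMK and TK1, kinases that phosphorylate thymidylate and thymidine, had log2 fold changes of -0.16 and -0.10 with overlapping groups. Of the other folate enzymes 8 of 10 were tested and 0 called by edgeR (0 at an unadjusted p under 0.05, 0 by DESeq2), with a median of 0.01. MTFMT, which formylates the initiator transfer RNA of mitochondria, was at -0.16 on the log2 scale (edgeR adjusted p = 0.594).

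Of the folate carriers and folate-modifying enzymes 3 of 6 could be tested and 0 were called by edgeR (0 at an unadjusted p under 0.05, 0 by DESeq2). The proton-coupled carrier SLC46A1 was at -0.08 and the polyglutamating FPGS at 0.04 on the log2 scale. The reduced folate carrier SLC19A1 had no read in any library. The treatment of multiply matching reads is unknown, so a count of 0 does not show that a transcript was absent. The mitochondrial folate carrier SLC25A32 had 14 and 8 reads in the TYMP libraries and 3 and 6 in the NC libraries. Glycine cleavage could hardly be measured: of 4 genes, DLD was the 1 tested (log2 fold change -0.01; edgeR adjusted p = 0.961), and GCSH had no read. In the methionine cycle and transsulfuration 7 of 11 genes were tested, 0 were called by edgeR or DESeq2, and 3 were lower and 0 higher at an unadjusted p under 0.05. CTH, which releases cysteine from cystathionine, had 12.3 and 12.1 CPM in the TYMP libraries and 17.02 and 17.7 CPM in the NC libraries (log2 fold change -0.51; edgeR adjusted p = 0.0852). AHCY, which clears S-adenosylhomocysteine, was at -0.24 (edgeR adjusted p = 0.193).

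Among 5 serine carriers, SLC1A5, which carries neutral amino acids such as glutamine and serine, fell to 214 and 176 CPM in the TYMP libraries, against 289 and 252 CPM in the NC libraries (log2 fold change -0.47 ± 0.104 SE; edgeR adjusted p = 0.0243). It did not pass without TYMP replicate 2 (-0.34, edgeR adjusted p = 0.196). The other 4, the mitochondrial serine carrier SFXN1 among them, were not called. Of 7 tested genes that use serine for lipids or for racemisation and breakdown, 0 were called by edgeR or DESeq2 (1 higher and 0 lower at an unadjusted p under 0.05). SPTLC3, a subunit of serine palmitoyltransferase, was at 0.25 and PTDSS1, a phosphatidylserine synthase, at -0.14.

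Of the 19 tested genes in the list of ATF4 and its targets outside the 9 enzymes, 7 fell, 0 rose and 12 were not called by edgeR (11 lower and 0 higher at an unadjusted p under 0.05), against 1.23% called lower and 6.62% lower at an unadjusted p among all tested genes. The median log2 fold change of the list was -0.43, and 18 of 19 were below 0, CEBPB and ALDH18A1 at only -0.03 and -0.02. PHGDH, PSAT1, SHMT2 and MTHFD2 are also known targets of ATF4. Of these, edgeR called PSAT1 and MTHFD2 lower, while PHGDH (log2 fold change 0.18) and SHMT2 (-0.13) were not called. ATF4 itself, named after its values were seen, had 268 and 255 CPM in the TYMP libraries and 359 and 343 CPM in the NC libraries (log2 fold change -0.43 ± 0.0784 SE; edgeR adjusted p = 0.00833). STC2, a secreted stanniocalcin, had 62.7 and 58.6 CPM in the TYMP libraries and 106 and 104 CPM in the NC libraries (log2 fold change -0.79). CHAC1, which degrades glutathione, had 6.21 and 3.95 CPM in the TYMP libraries and 16.4 and 17.5 CPM in the NC libraries (log2 fold change -1.74). The cystine carrier SLC7A11 fell by 0.71 and the glycyl-tRNA synthetase gene GARS1 by 0.42 on the log2 scale, and GARS1 did not pass without TYMP replicate 2 (edgeR adjusted p = 0.0563). ASNS, the asparagine synthetase gene, had 16 and 16 reads in the TYMP libraries and 14 and 31 in the NC libraries, which did not pass (edgeR adjusted p = 0.724). By limma on filtered log2 FPKM with a pseudocount of 1, STC2 and CHAC1 passed (adjusted p = 0.0124 and 0.0133), while SLC7A11, GARS1 and SLC1A5 did not (0.0833, 0.0599 and 0.129). The lists and their genes were not drawn independently of earlier results of these libraries, so the counts describe them and are not a separate line of evidence.

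**Figure D5:**
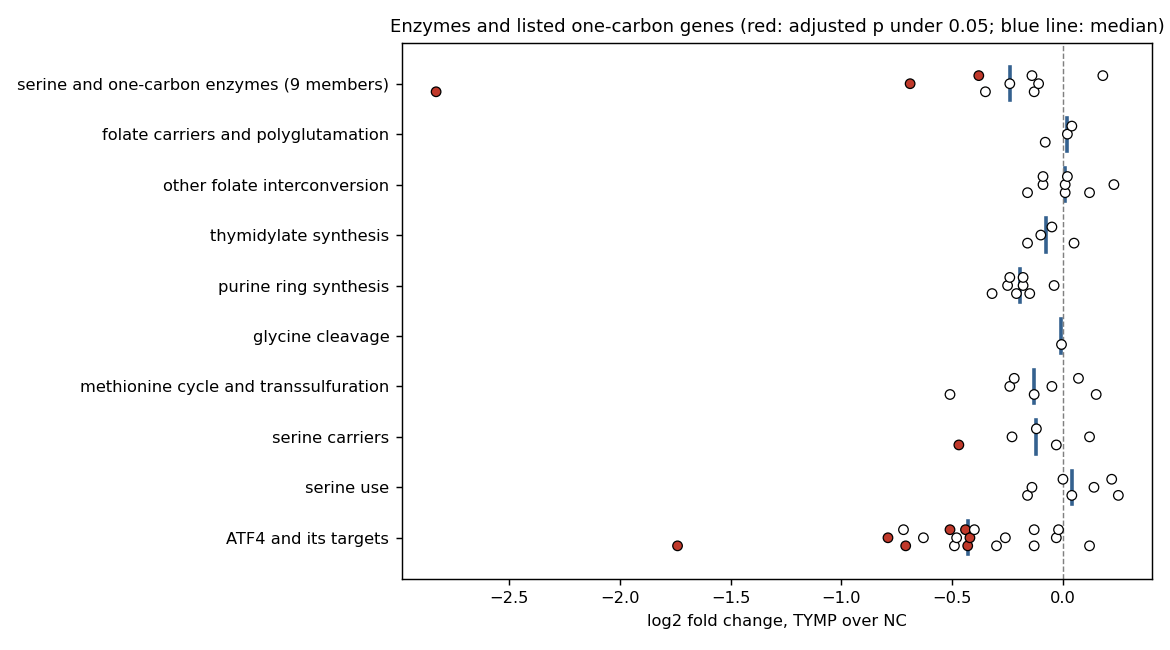
Log2 fold change, TYMP over NC, of the 9 enzymes (top) and of the tested genes of 9 lists, with red points at an adjusted p under 0.05 and a blue line at each median. Red points stand left of 0 and lie among the 9 enzymes, the serine carriers and the list of ATF4 and its targets, and the purine genes lie between -0.32 and -0.04 with 0 called.

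The genes whose levels ran most like those of the 2 better measured called enzymes were found by the root mean square difference of log2 CPM over the 4 libraries, each gene centred on its own mean, among 10121 other tested genes with at least 5 CPM on average. For MTHFD2 these were DUSP4, F3 and FST, at 0.0237, 0.0256 and 0.0259, which encode a MAP kinase phosphatase, tissue factor and follistatin. DUSP4 had 56.5 and 59.7 CPM in the TYMP libraries and 93.6 and 98.8 CPM in the NC libraries, and 46 genes lay within 0.1 of MTHFD2. For PSAT1 they were FAM107B, SEMA3D and NBPF20, at 0.0137, 0.0191 and 0.0210, of which edgeR called none (adjusted p = 0.0641, 0.108 and 0.2), and 457 genes lay within 0.1. SHMT1 averaged less than 5 CPM and was not matched.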

How the data were processed

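The authors deposited raw read counts per gene and FPKM for 4 libraries in 1 table. Per the submitters' processing notes HISAT2, HTSeq 0.13.5 and GRCh38 were used, without roles. The sources used here do not give the annotation, the strand setting or the treatment of multiply matching reads. The deposited FPKM of the authors could be rebuilt from their counts, column totals and 1 length per gene, and served for levels per length and as an alternative unit. Counts were tested with edgeR 4.0.16 in R 4.3.3 (filterByExpr, TMM, robust quasi-likelihood test, group as the only term, Benjamini-Hochberg over 14380 genes, threshold 0.05). Log2 fold changes are TYMP over NC. Intervals use the moderated degrees of freedom. Coordinates and exon overlaps came from GENCODE 29 by gene identifier, and promoters from RefSeq on GRCh38.p14. Alternatives were DESeq2 1.42.0, limma 3.58.1 with voom or on log2 FPKM with a pseudocount of 1 or 0.1, other scalings and filters, the replicate number as a block, and each library left out. With a library left out, the remaining lone one is taken to be as variable as the other group. The procedure was tested on simulated counts. The members, lists, motifs and named genes were chosen with earlier results of these data known. Named genes were, in each list, at most 4 called ones with the smallest p, and at most 2 in a list without calls; other genes named from the lists were picked after their values were seen. A gene that this rule names is not reported here. Libraries of a group were not duplicates: their chi-square per degree of freedom was 5.84 in TYMP and 7.39 in NC.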

Additional observations from a re-analysis of the deposited data

How the results depend on the processing

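For ALDH1L2, with 10 to 13 reads per library, the depth limits what could be seen. With library totals in place of TMM, 528 genes were called, 353 of them higher, against 478 with 301 higher, and with DESeq2's scaling 480, with 302 higher. SHMT1, MTHFD2 and PSAT1 were called lower in the alternatives on counts that kept all 4 libraries. With any 1 library left out, SHMT1 (-3.25 to -2.44) and MTHFD2 (-0.75 to -0.64) kept log2 fold changes below 0. SHMT1 met the filter of 5 CPM in 2 libraries only through its NC libraries. It had 9.16 and 5.62 CPM there, against 1.30 and 0.766 CPM in the TYMP libraries. Its call under that filter is therefore no separate support.

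Over all genes 478 were called, against 732 with no filter, 2024 with the replicate number as a block, 165 and 170 on log2 FPKM with pseudocounts of 1 and 0.1, and 0 on unfiltered log2 FPKM by limma (2480 at an unadjusted p under 0.05). Among the 9 enzymes 3 were called, against 7 under the block, 1 and 1 on FPKM and 0 on unfiltered FPKM (4 at an unadjusted p under 0.05), and 2 to 4 without 1 library. Among listed genes 8 were called, against 20 under the block, 2 and 3 on FPKM, 0 on unfiltered FPKM (15 at an unadjusted p under 0.05), and 3 to 10 without 1 library. The cause was not tested. The replicate numbers share only a number: across genes the replicate differences of TYMP and NC correlated at 0.186, and there were only 2 pairs. Under this pairing PHGDH (0.19, adjusted p = 0.0274), PSPH (-0.24, 0.0298), MTHFD1 (-0.14, 0.0447) and MTHFD1L (-0.34, 0.000144) also passed. MTHFD1L passed with no filter (-0.35, adjusted p = 0.0135).

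PSAT1 did not pass on FPKM (-0.36 in all 3 forms, adjusted p = 0.138, 0.137 and, unfiltered, 0.46), and on unfiltered FPKM neither did SHMT1 (-0.83, 0.363) or MTHFD2 (-0.59, 0.266). SHMT1 and ALDH1L2 fell below the FPKM filter of 1, and ALDH1L2 had no adjusted p from DESeq2 and fell below the 5 CPM filter. Without 1 library the log2 fold change ranged from 0.02 to 0.37 for PHGDH, -0.46 to -0.29 for PSAT1, -0.32 to -0.15 for PSPH, -3.25 to -2.44 for SHMT1, -0.26 to 0.01 for SHMT2, -0.18 to -0.10 for MTHFD1, -0.47 to -0.21 for MTHFD1L, -0.75 to -0.64 for MTHFD2 and -0.28 to 0.05 for ALDH1L2. SHMT2 changed sign without NC replicate 1 (0.01), and ALDH1L2 without NC replicate 1 (0.01) or TYMP replicate 2 (0.05). Of the uncalled listed genes, SLC46A1 (-0.25 to 0.07), FPGS (-0.13 to 0.22) and TK1 (-0.22 to 0.03) changed sign among the fits without 1 library. DLD did so with library totals (0.00317), the 5 CPM filter (0.000392), FPKM (0.00336, 0.00345 and, unfiltered, 0.00336) and among the fits without 1 library (-0.05 to 0.02).

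With the length of the longest coding transcript, chosen after seeing the data, the mean ratio of SHMT1 to SHMT2 was 0.00581 in TYMP and 0.0381 in NC libraries (0.00371 and 0.0243 by FPKM). That of MTHFD1L to MTHFD1 was 0.845 and 0.977 (1.58 and 1.83), and that of MTHFD2 to MTHFD2L 2.92 and 5.53 (4.75 and 8.95).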
